A study of Homo sapiens with 4 samples.

Results

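MOLM13 cells carry a rearranged MLL1 gene (MLL1-r) that joins KMT2A to MLLT3, and H3K27Ac occupancy was examined at 10 genes: both genes of that fusion, the genes of the Menin complex that holds the fusion on chromatin, and the genes of the elongation machinery that the fusion recruits. The genes were chosen by what their proteins do, with earlier results of these data known. They were KMT2A, MLLT3, MEN1, PSIP1, DOT1L, MLLT1, MLLT10, AFF1, AFF4 and ELL, which is 10 of the 20033 protein-coding genes of the annotation used. MOLM13 is an established human acute myeloid leukemia (AML) line. H3K27Ac, a histone mark of active promoters and enhancers, was measured by ChIPmentation, in which Tn5 transposase tags the DNA of the immunoprecipitated chromatin. A single library came from control cells, and a single one from cells exposed to SNDX-50469, a Menin inhibitor, at 500 nM for 16 h. The control sample is labelled with no treatment, while the protocol names a DMSO arm. Both libraries share the same line and hence the same fusion, and since the peak lists hold no sequence variants, the rearranged and the normal copies of KMT2A and of MLLT3 cannot be told apart. With 1 library per condition there is no replicate error, so every difference below compares 2 libraries, and no test between the conditions was possible.

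KMT2A (MLL1) is a methyltransferase of lysine 4 of histone H3. In MLL1-r leukemia its N-terminal part is fused to a partner protein, and the fusion is transcribed from the KMT2A promoter. Menin, encoded by MEN1, bridges the N-terminus of MLL1 to LEDGF, the PSIP1 product, which reads methylated H3K36. Inhibitors such as SNDX-50469 occupy the pocket of Menin that binds MLL1. The partner MLLT3 (AF9) and its paralogue MLLT1 (ENL) read acylated lysines and bind DOT1L, the methyltransferase of H3K79, whose complex also holds MLLT10 (AF10). MLLT3 and MLLT1 also join the super elongation complex, in which AFF1 (AF4) and AFF4 are scaffolds and ELL is an elongation factor.

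Of the 10 genes, 9 had promoter sequences in the RefSeq table of GRCh38.p14, the release of the build that the lists use. The 250 bases before 6 listed starts are given because they carry the contrast described below: MLLT3, which had no peak there in either list, KMT2A, AFF4 and the outermost AFF1 start, where H3K27Ac covered all 250 bases in control and none following treatment, and PSIP1 and the internal AFF1 start, where it covered all 250 in both. Capitals mark CG dinucleotides. The KMT2A bases lie at chr11:118436242-118436491 on the plus strand, those of MLLT3 at chr9:20622500-20622749 on the minus strand, those of PSIP1 at chr9:15510971-15511220 on the minus strand, those of AFF4 at chr5:132963635-132963884 on the minus strand, and those of AFF1 at chr4:86934761-86935010 and, for the internal start, chr4:87007021-87007270 on the plus strand. All are written 5′ to 3′.
KMT2A: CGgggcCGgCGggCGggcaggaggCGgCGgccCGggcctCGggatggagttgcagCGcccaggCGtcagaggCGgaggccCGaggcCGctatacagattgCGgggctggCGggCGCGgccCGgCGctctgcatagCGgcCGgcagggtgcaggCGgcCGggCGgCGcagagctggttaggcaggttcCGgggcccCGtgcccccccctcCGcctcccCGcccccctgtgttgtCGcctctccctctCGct
MLLT3: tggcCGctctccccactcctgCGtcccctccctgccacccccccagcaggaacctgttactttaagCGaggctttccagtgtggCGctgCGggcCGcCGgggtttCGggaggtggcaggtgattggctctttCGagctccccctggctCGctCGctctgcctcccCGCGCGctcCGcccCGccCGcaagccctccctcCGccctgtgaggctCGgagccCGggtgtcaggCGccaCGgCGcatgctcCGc
AFF4: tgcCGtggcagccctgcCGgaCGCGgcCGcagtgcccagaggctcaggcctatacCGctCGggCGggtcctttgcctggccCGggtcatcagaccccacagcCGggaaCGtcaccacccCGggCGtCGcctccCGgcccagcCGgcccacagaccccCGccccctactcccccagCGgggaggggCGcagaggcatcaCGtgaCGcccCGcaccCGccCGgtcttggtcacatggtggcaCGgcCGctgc
PSIP1: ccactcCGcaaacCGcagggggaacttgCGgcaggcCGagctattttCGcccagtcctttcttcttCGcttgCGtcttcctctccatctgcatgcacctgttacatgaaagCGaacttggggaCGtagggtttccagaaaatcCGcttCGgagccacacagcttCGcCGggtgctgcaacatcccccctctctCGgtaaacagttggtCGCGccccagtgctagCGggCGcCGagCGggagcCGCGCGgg
AFF1 outermost start: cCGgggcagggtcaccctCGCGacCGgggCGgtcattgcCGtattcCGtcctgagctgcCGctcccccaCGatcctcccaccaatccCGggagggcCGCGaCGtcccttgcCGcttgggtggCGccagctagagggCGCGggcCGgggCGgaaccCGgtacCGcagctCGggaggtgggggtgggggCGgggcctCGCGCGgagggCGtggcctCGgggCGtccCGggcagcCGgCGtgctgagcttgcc
AFF1 internal start: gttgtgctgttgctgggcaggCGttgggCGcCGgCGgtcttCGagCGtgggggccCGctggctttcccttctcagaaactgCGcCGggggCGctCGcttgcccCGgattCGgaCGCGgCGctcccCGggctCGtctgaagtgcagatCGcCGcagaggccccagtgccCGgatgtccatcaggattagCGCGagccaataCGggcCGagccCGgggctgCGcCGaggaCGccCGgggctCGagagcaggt

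CG dinucleotides numbered 31 at KMT2A, 24 at MLLT3, 26 at AFF4, 23 at PSIP1, and 32 and 31 at the outermost and internal AFF1 starts. Over all 35116 promoters of the table the median was 11, with quartiles of 3 and 23. The count did not separate starts that stayed under a peak from those that did not. Among all listed starts of the 9 genes, those covered over all 250 bases in both lists held 23 (PSIP1), 31 (AFF1, internal) and 13 and 39 (MLLT10), and those covered over all 250 in control and none following treatment held 31 (KMT2A), 32 (AFF1, outermost), 26 (AFF4), 15 and 18 (MEN1) and 21 (PSIP1, second start). Motifs were searched on both strands. GGGCGG, the GC box, which 42.6% of all promoters held, did not separate them either: it occurred 3 times each at KMT2A, AFF4 and the outermost AFF1 start, 0 and 2 times at the MEN1 starts and once at the second PSIP1 start, against 0 at the outermost PSIP1 and internal AFF1 starts and 1 and 2 at the MLLT10 starts. CCAAT, held by 32.0% of promoters, occurred once at MLLT3 and at each AFF1 start. CACGTG, held by 6.34%, occurred once at AFF4, and TATAAA, held by 10.7%, at none of the 6 sequences shown.

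Over each list as a whole, the control library had 245875 broad peaks covering 224 Mb and the SNDX-50469 library had 54061 peaks covering 29.4 Mb. Of the control length, 9.71% was also under a peak of the SNDX-50469 list, and this percentage is called the kept share. The read depths are not known from the files, and the lists did not reach equally far down: the smallest fold over background was 2.66 in control and 3.46 in SNDX-50469, and the smallest −log10 p was 2.68 and 3.93. A control peak with a −log10 p below the lowest of the SNDX-50469 list therefore had no counterpart at its own level to be matched with. These values are not scaled between the libraries, so the same −log10 p need not be the same strength in both. Fewer acetylated cells and less acetylation per cell also cannot be told apart. For the label, 9 of 9 monocytic AML markers had a control peak within 5 kb of the 5′ end, with a median of 8296 bp, against 5 of 9 markers of other cells, with a median of 305 bp, and 7 and 0 of them respectively had a SNDX-50469 peak. COL1A1, of fibroblasts, had 2347 bp and CD3E, of T cells, 1065 bp, both in control.

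In the full peak lists, the covered length following SNDX-50469 treatment was lower at all 10 genes. Over the genes with flanks of 5 kb, the 10 genes together had 329182 bp under control peaks and 42122 bp under SNDX-50469 peaks, with 39391 bp in both, a kept share of 12.0%, beside 11.6% over all genes summed in the same way. The covered length fell at least 2-fold at 10 of 10 genes, which is near the background, since 93.7% of the 15631 genes with a control peak did so. The genes kept 28 of their 311 control peaks, 9.0% (95% Wilson interval 6.30 to 12.7), and 8.24% of the whole control list was kept. This interval covers counting error only, and peaks of 1 gene are not independent. The kept share was higher at the 5′ ends. Within 5 kb on either side of the 5′ end, 46033 bp of control and 15070 bp of SNDX-50469 peaks shared 14779 bp, or 32.1%, beside 20.4% over all genes summed. Over the rest of the genes and flanks 24612 of 283149 bp was kept, or 8.69%, beside 7.88%, so a higher kept share near the 5′ end was also found over all genes. The median over the 10 genes was 24.8% near the 5′ end and 0% over the rest, beside 1.83% and 0% over all genes with control coverage there. The 10 genes also had longer control coverage near the 5′ end than other genes, with a median of 4243 bp against 3314 bp. The part of this in the difference of the medians was not tested, and values at like coverage are given below.

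**Figure D1:**
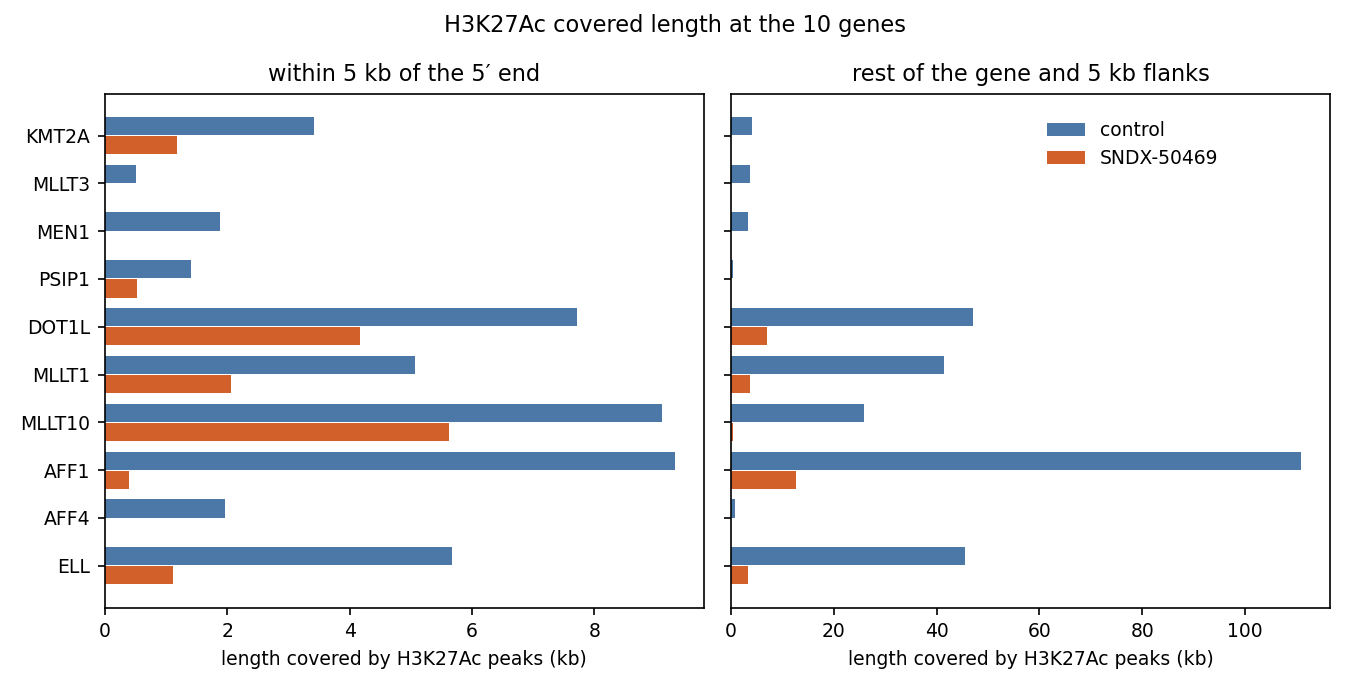
Length covered by H3K27Ac peaks (kb) at each of the 10 genes, within 5 kb of the 5′ end (left) and over the remaining gene with its 5 kb flanks (right), with blue bars for the control library and orange bars for the SNDX-50469 library, 1 library each and no error bars. MLLT3, MEN1 and AFF4 have no orange bar on either side, and AFF1 has the longest control coverage, 9318 bp near the 5′ end and 110968 bp over the rest.

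At the 5′ ends, 7 of the 10 genes kept some control length, and 50.8% of the 13245 genes with a control peak there did so. The kept shares were 61.8% at MLLT10, 54.1% at DOT1L, 40.1% at MLLT1, 36.9% at PSIP1, 34.6% at KMT2A, 14.9% at ELL and 4.27% at AFF1. MLLT3, MEN1 and AFF4 kept none near the 5′ end and none elsewhere. That placed them among the 44.8% of genes that kept nothing over gene and flanks. Over the rest alone, 6 of 10 genes kept nothing (KMT2A, MLLT3, MEN1, PSIP1, MLLT10 and AFF4), and the background was 67.6%. The kept share was higher near the 5′ end than over the rest at 6 of 10 genes, against 47.9% of the 11405 genes with control coverage in both. AFF1 had the opposite order, and the 3 genes without any SNDX-50469 peak had 0% in both.

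**Figure D2:**
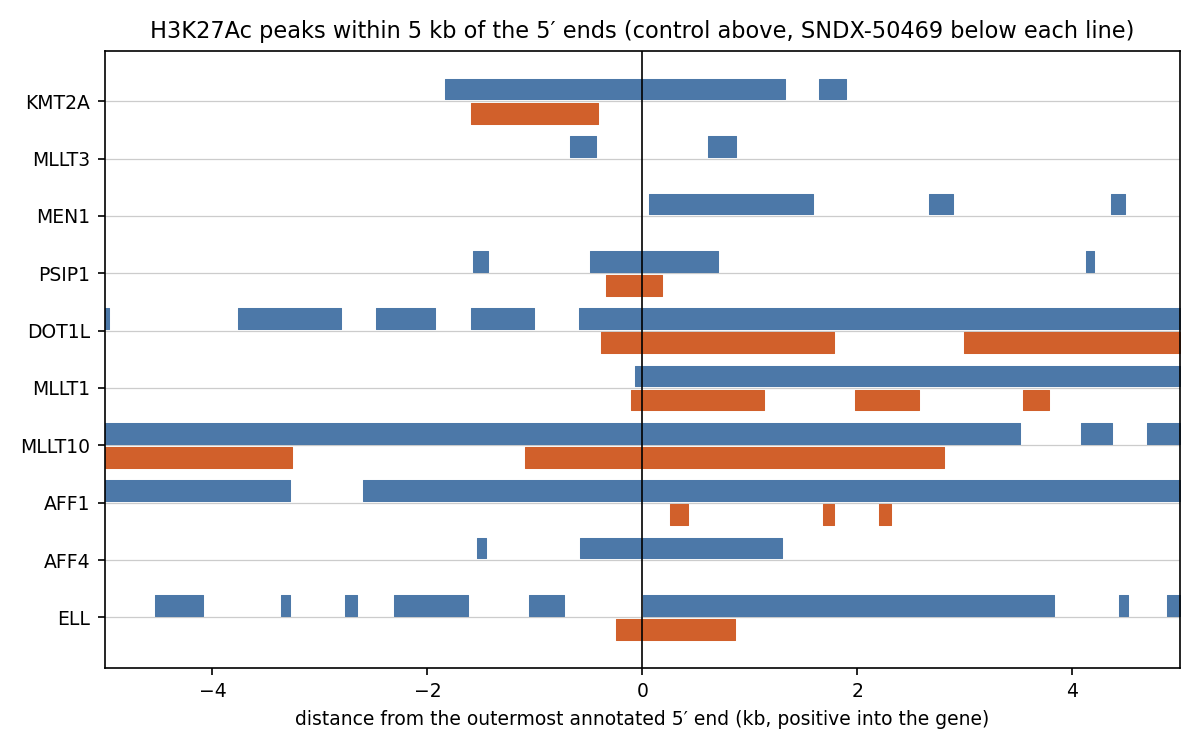
H3K27Ac peaks from 5 kb before to 5 kb after the outermost annotated 5′ end of each gene, with control peaks in blue above each line and SNDX-50469 peaks in orange below it (horizontal axis in kb, positive into the gene). The orange peak of KMT2A ends 418 bp before the 5′ end, those of PSIP1, DOT1L, MLLT1, MLLT10 and ELL cross it, and AFF1 has 3 short orange peaks after it.

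KMT2A (chr11:118436492-118526832, plus strand), the 5′ partner of the fusion, had 12 control peaks over 7546 bp and 1 SNDX-50469 peak of 1180 bp. Its strongest control peak spanned 3160 bp, from 1832 bp before to 1327 bp after the 5′ end, with a fold over background of 6.64 and a −log10 q of 8.78, and ranked 2810 of 245875 by fold. The SNDX-50469 peak lay wholly within it, from 1597 to 418 bp before the 5′ end, with a fold of 3.94 and rank 12905 of 54061. The folds are relative to the background of each library and were not compared between lists. The kept H3K27Ac thus lay upstream only. In the 5 kb before the 5′ end 64.4% of 1832 bp was kept, while none of the 1582 bp in the first 5 kb of the gene was. A second control peak began shortly after the first within that stretch and was also lost.

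Along the 90.3 kb body of KMT2A the other control peaks were weak and sparse. They had folds of 2.66 to 3.81. Peaks were listed in 5 of 19 bins of 5 kb: the first bin, 258 bp between 10 and 15 kb, 533 bp between 15 and 20 kb, 168 bp between 35 and 40 kb, and 2895 bp between 85 and 90 kb at the 3′ end. Between 38.9 and 85.9 kb, a stretch of 47.0 kb, neither list had a peak. The 3′ group included a peak of 1766 bp, and a further 278 bp lay in the downstream flank, where the 5′ ends of TTC36 and TMEM25 lie 91.0 and 94.7 kb from that of KMT2A. No SNDX-50469 peak lay in the gene body or downstream. Of the 12 control peaks, 2 reached the lowest −log10 p among SNDX-50469 peaks, both near the 5′ end, and 1 of those was kept. The 10 weaker ones were all lost. Beyond 5 kb from the 5′ end, every control peak of KMT2A was below that level, whereas the control coverage lost in the first 5 kb of the gene came from the 2 peaks above it. The position of the fusion breakpoint is not given by the peak lists.

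MLLT3 (chr9:20341669-20622499, minus strand), the 3′ partner, had 10 control peaks over 4252 bp in a gene of 281 kb and no SNDX-50469 peak. None of its control peaks reached a −log10 q of 5. Near the 5′ end there were 257 bp (fold 3.30), from 614 to 870 bp after it, and 243 bp (fold 2.66), from 672 to 430 bp before it. Neither covered the 250 bases before the start, unlike the peak of KMT2A. The widest peak, 1846 bp with a fold of 3.04, lay 108 to 109 kb into the gene and ranked 101436 by fold. Peaks fell in 9 of 57 bins, and the longest stretch without any ran for 110.0 kb, from 110 to 220 kb. The strongest peak was only 124 bp wide, with a fold of 3.47 at 262 kb, and it was the single one of the 10 to reach the lowest −log10 p among SNDX-50469 peaks. For MLLT3, then, absence from the SNDX-50469 list concerned 9 peaks with a −log10 p below the lowest of that list and 124 bp above it. The −log10 p is not scaled between the libraries, so this is not a comparison of strength.

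**Figure D3:**
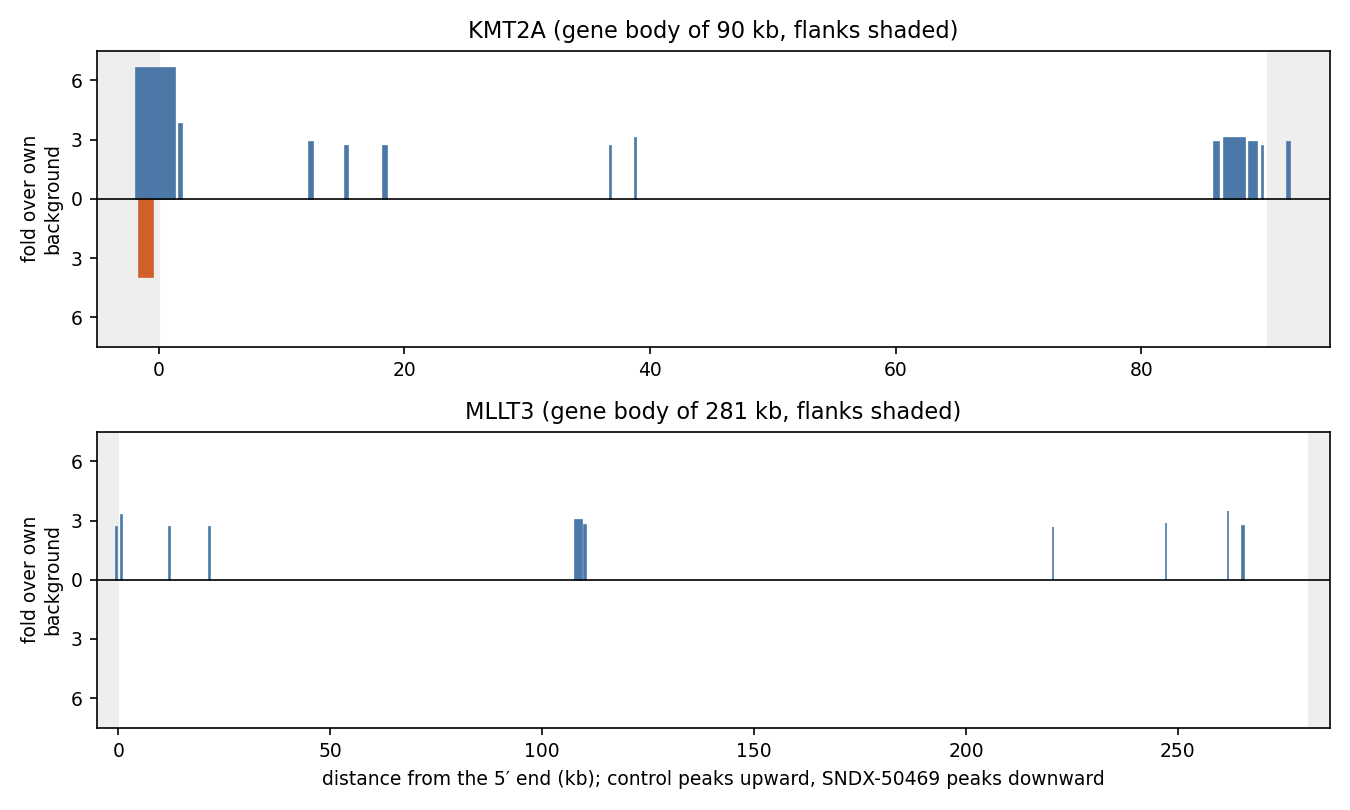
H3K27Ac peaks along KMT2A (top) and MLLT3 (bottom), drawn from their start to their end in kb from the 5′ end, with the height giving the fold over the background of the peak's own library, control upward in blue and SNDX-50469 downward in orange, and 5 kb flanks shaded. KMT2A has 1 control peak with a fold of 6.64 over its 5′ end and 1 SNDX-50469 peak with a fold of 3.94 just upstream, and MLLT3 has 10 control peaks with folds of 2.66 to 3.47 and none below the line.

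Genes with values like these 2 were found by the Euclidean distance over the log10 of the 4 lengths (control and SNDX-50469, near the 5′ end and over the rest, each plus 100 bp). For KMT2A the nearest were SPOP, an adaptor of ubiquitin ligases, with near lengths of 3322 and 1074 bp and rest lengths of 3847 and 0 bp (distance 0.0496), and CDK12, a kinase of RNA polymerase II, with 3218 and 1274 bp and 4514 and 0 bp (distance 0.0546). For MLLT3 they were DHRS2, with near lengths of 480 and 0 bp and rest lengths of 3665 and 0 bp (distance 0.0178), and PDLIM5, with 520 and 0 bp and 3655 and 0 bp (distance 0.0180). The measure uses 1 library per condition.

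The Menin complex genes were lightly covered. MEN1 (chr11:64803516-64811294, minus strand) encodes the protein that SNDX-50469 binds. Over the gene and its 5 kb flanks it had 10 control peaks over 5107 bp and none following treatment. The strongest, 1521 bp with a fold of 3.91, began 65 bp after the 5′ end and ranked 21160. Both RefSeq starts of MEN1 in the table, 608 and 743 bp inside the outermost end, lay under it. Near the 5′ end 1876 bp was covered in control and over the rest 3231 bp. Most of the latter was outside the gene, which is 7779 bp long. The control peaks from 9078 to 12558 bp after the 5′ end lay wholly in the downstream flank. So did most of a peak from 7726 to 8748 bp, which covered the 5′ end of MAP4K2, 8080 bp from that of MEN1. PSIP1 (chr9:15464066-15510970, minus strand) had 4 control peaks over 1800 bp and 1 SNDX-50469 peak of 517 bp. Its control peak of 1188 bp, from 484 bp before to 703 bp after the 5′ end (fold 5.30, −log10 q 5.82), was stronger than any at MEN1. The SNDX-50469 peak, from 334 bp before to 182 bp after it (fold 3.85), lay inside that control peak. So the outermost PSIP1 start was covered in both lists, and the second listed start, 612 bp inside, in control only.

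DOT1L, MLLT1 and MLLT10 had the highest kept shares near the 5′ end among the 10 genes. DOT1L (chr19:2163933-2232578, plus strand by an older annotation) had 40 control peaks over 54711 bp and 11 SNDX-50469 peaks over 11091 bp. A control peak of 8810 bp over its 5′ end had a fold of 9.93 and a −log10 q of 16.8 and ranked 295 of 245875, and was the strongest control peak at the 10 genes. The SNDX-50469 peak there, 2169 bp with a fold of 7.23, ranked 216 of 54061. Of 7713 bp of control within 5 kb, 4173 bp was kept, while over the rest it was 5937 of 46998 bp, or 12.6%. The 5′ end of AP3D1, an adaptor protein of vesicle transport, lies 683 bp inside that of DOT1L, so the peak may belong to either gene or both. At the 3′ flank a SNDX-50469 peak of 4272 bp (fold 5.67, rank 892) lay over the 5′ ends of PLEKHJ1 and SF3A2, and 3706 bp of it was under control peaks.

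MLLT1 (chr19:6210381-6279975, minus strand) had 30 control peaks over 46545 bp and 13 SNDX-50469 peaks over 5793 bp. Its strongest control peak, 12666 bp with a fold of 5.28, ran from 70 bp before the 5′ end into the gene. In the SNDX-50469 list this stretch was broken into separate peaks, of which 1238 bp crossed the 5′ end (fold 3.77) and 1909 bp lay 6.43 to 8.34 kb inside. They left 4386 bp of the control peak, 34.6%, covered. The widest control peak of the gene, 13048 bp from 42.5 to 55.5 kb, kept 890 bp, or 6.82%. None of the 13 SNDX-50469 peaks reached a −log10 q of 5.

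MLLT10 (chr10:21533756-21743630, plus strand) had 71 control peaks over 34982 bp and 3 SNDX-50469 peaks over 6005 bp. The control peak over its 5′ end was 43408 bp wide, the 34th widest of the list, with a fold of 7.67. It reached from 39896 bp before to 3511 bp after the 5′ end and also held the whole of SKIDA1, a neighbouring gene on the opposite strand. Of this peak 30820 bp, or 71.0%, stayed covered. SNDX-50469 peaks of 7025 bp (fold 7.20, rank 221 of 54061) upstream and of 3895 bp (fold 4.78) over the 5′ end together gave the 5631 bp kept near it. Both listed starts of MLLT10 lay under a peak in both lists. Beyond 5 kb the picture differed. There, 69 control peaks with 25877 bp kept none of it, and the only SNDX-50469 peak there, 374 bp near the 3′ end, overlapped no control peak. Of the 71 control peaks 67 had a −log10 p below the lowest of the SNDX-50469 list. SKIDA1 itself kept 82.1% of 22208 bp.

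**Figure D4:**
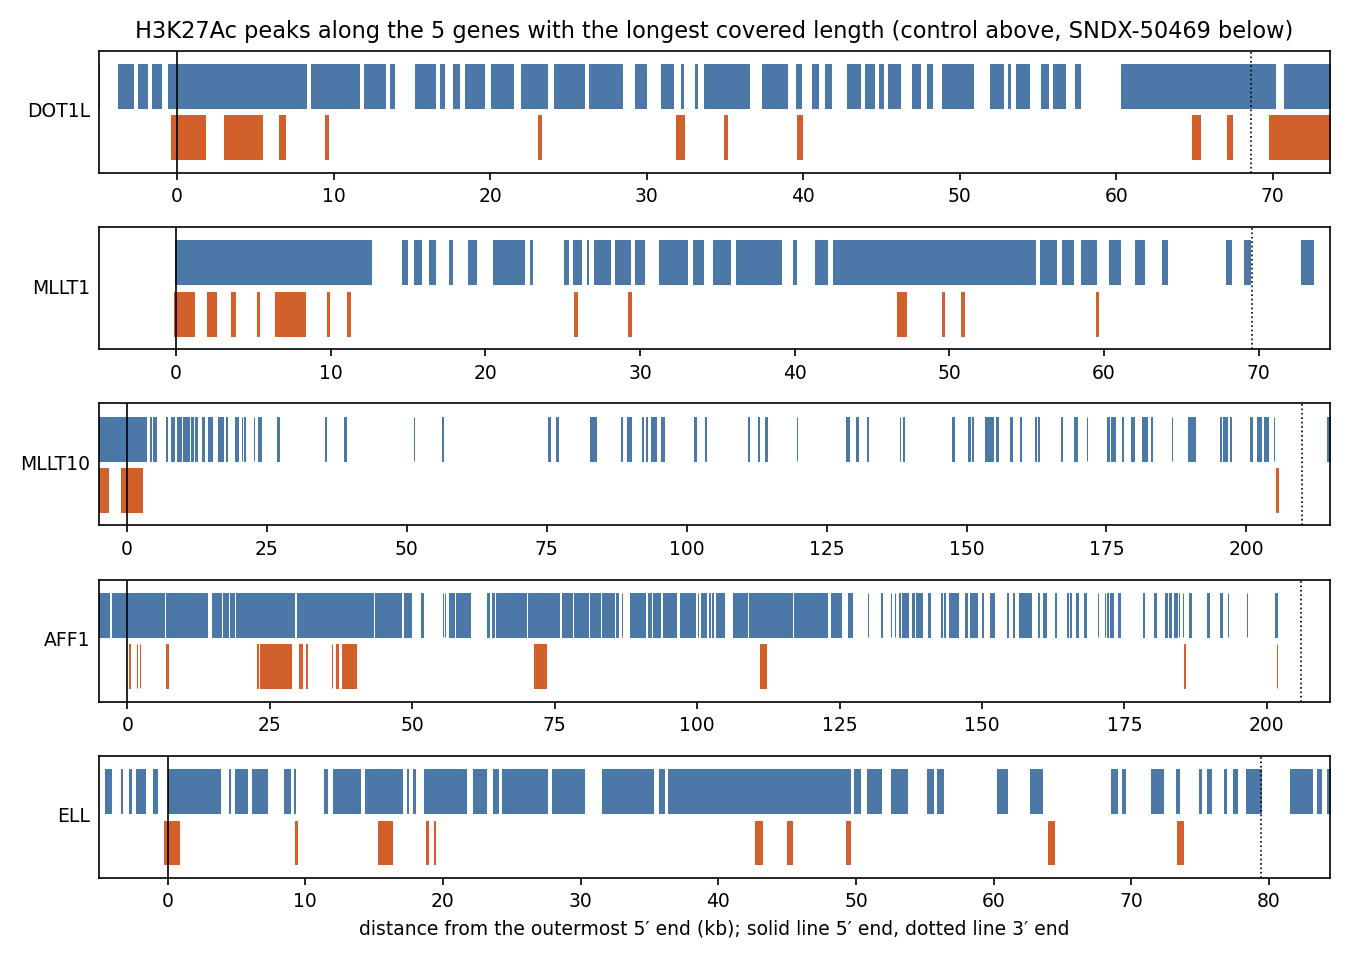
H3K27Ac peaks along DOT1L, MLLT1, MLLT10, AFF1 and ELL, each from 5 kb before the 5′ end (solid line) to 5 kb after the 3′ end (dotted line) in kb, with control peaks in blue above and SNDX-50469 peaks in orange below. Orange peaks lie over the 5′ ends of DOT1L, MLLT1, MLLT10 and ELL and also further along each gene, with 4272 bp at the 3′ flank of DOT1L, and 9173 bp lie between 19.0 and 43.0 kb in AFF1.

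Among the scaffolds of the super elongation complex, AFF1 and AFF4 differed widely in coverage. AFF1 (chr4:86935011-87141039, plus strand) had 85 control peaks over 120286 bp, the longest of the 10 genes, and 15 SNDX-50469 peaks over 13104 bp. Near its outermost 5′ end 9318 of 10000 bp was covered in control and 398 bp was kept, in 3 short peaks. Genes with 7.5 to 10 kb of control coverage in this window had a median kept share of 24.2% (quartiles 7.64 and 44.7), so the 4.27% of AFF1 was below the lower quartile. The 5′ end of C4orf36 lies 1193 bp inside that of AFF1. The 2 strongest control peaks of AFF1 outside the window spanned 19.0 to 43.0 kb into the gene. In that stretch 9173 of 23471 bp was kept, or 39.1%, and it held both the strongest control peak of the gene, 10146 bp with a fold of 7.38, and its strongest SNDX-50469 peak, 5387 bp with a fold of 4.85 and rank 2122. A further SNDX-50469 peak of 2049 bp (fold 4.32) covered the 250 bases before the internal start, 72260 bp inside. Within 5 kb of that start 22.7% of 9044 bp was kept. AFF1 thus kept more at the internal start and within the gene than at its outermost start.

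AFF4 (chr5:132875395-132963634, minus strand) had 6 control peaks over 2787 bp and no SNDX-50469 peak. A peak of 1875 bp over the 5′ end had a fold of 4.21, ranked 15653, and was the only control peak of AFF4 to reach the lowest −log10 p among SNDX-50469 peaks. All 250 AFF4 promoter bases given above lay under it. ELL (chr19:18442663-18522070, minus strand) had 43 control peaks over 51166 bp and 10 SNDX-50469 peaks over 4432 bp. A control peak of 3824 bp with a fold of 6.50 began at the 5′ end, and the SNDX-50469 peak of 1107 bp (fold 4.15) crossed it, with 848 bp in common. The 250 bases before the ELL start were therefore uncovered in control and covered over 249 bp following treatment. The strongest and widest control peak of ELL, 13170 bp with a fold of 7.17, lay 36.4 to 49.5 kb inside, and 1103 bp of it was kept. Over the rest, ELL kept 5.53% of 45489 bp.

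**Figure D5:**
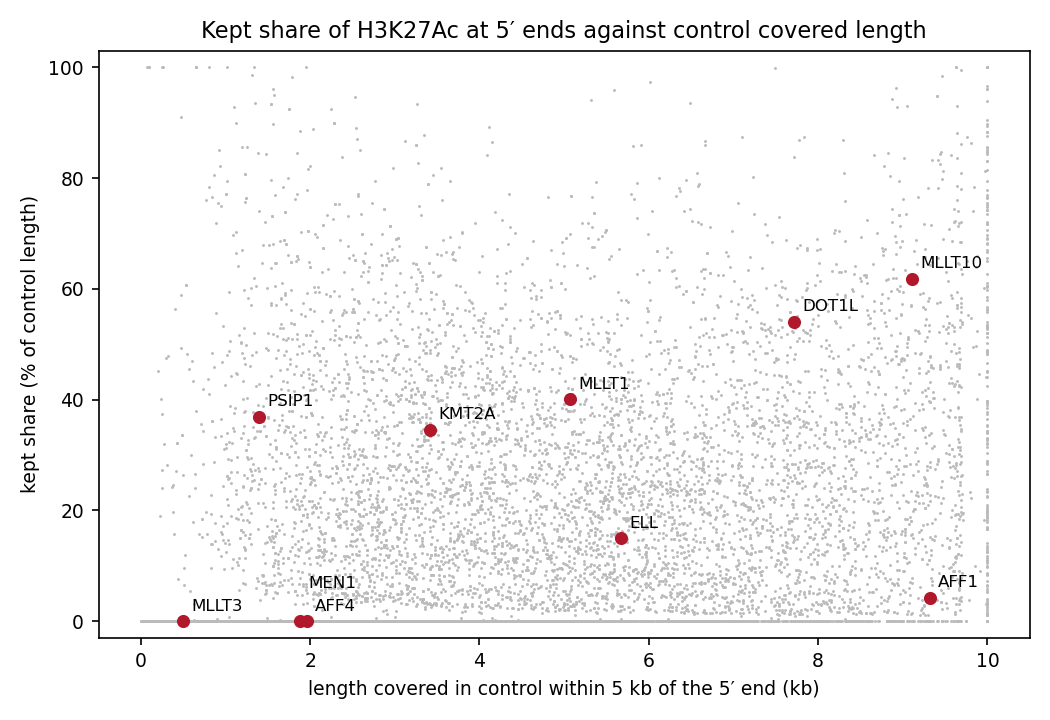
Kept share (percent of the control length within 5 kb of the 5′ end that a SNDX-50469 peak also covers) against that control length (kb), with a grey point for each protein-coding gene with a control peak there and the 10 genes in red. The red points run from 0% at MLLT3, MEN1 and AFF4 to 61.8% at MLLT10, and AFF1 lies at 4.27% among the most covered genes.

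The kept share of all genes rose with control coverage, so each gene was read against genes of like coverage. Near the 5′ end the median kept share of all genes was 0% up to 2.5 kb of control coverage, 9.28% from 2.5 to 5 kb, 14.8% from 5 to 7.5 kb and 24.2% from 7.5 to 10 kb. The 34.6% of KMT2A was above the upper quartile of its stratum (29.2%), as were the 36.9% of PSIP1 (12.7%), the 40.1% of MLLT1 (30.9%) and the 54.1% of DOT1L and 61.8% of MLLT10 (44.7%). ELL was near its stratum's median. MEN1 and AFF4 lay in the stratum of 1 to 2.5 kb, where 31.8% of genes kept any, and MLLT3 lay below 1 kb, where 4.21% did. Over the rest, DOT1L was above its stratum's upper quartile (11.4%), while MLLT1, ELL and AFF1 lay between the quartiles of theirs. Part of the length that DOT1L kept lay in its 3′ flank, under the 4272 bp SNDX-50469 peak over the 5′ ends of PLEKHJ1 and SF3A2. DOT1L kept 18.5% over gene and flanks and 13.5% without flanks, and its rest without that flank was not set against the stratum. MLLT10, with 0%, lay below the lower quartile of 0.414% among genes with 20 to 40 kb. These are positions in 2 libraries and carry no test. They also depend on the threshold: with peaks of a −log10 q of at least 5 alone, the kept share near the 5′ end was 0% at KMT2A, PSIP1, MLLT1, AFF1 and ELL, 20.4% at MLLT10 and 38.8% at DOT1L. The 20.4% at MLLT10 was 1736 bp of the upstream SNDX-50469 peak, which ends 3265 bp before the 5′ end and also covers the 5′ end of SKIDA1. The SNDX-50469 peak over the MLLT10 5′ end had a −log10 q of 3.51 and did not reach this level.

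Chromosomes differed as well. Of the control length, 14.4% was kept on chromosome 19, where DOT1L, MLLT1 and ELL lie, 8.66% on chromosome 11 (KMT2A and MEN1), 7.90% on chromosome 5 (AFF4), 7.56% on chromosome 10 (MLLT10), 7.07% on chromosome 9 (MLLT3 and PSIP1) and 6.68% on chromosome 4 (AFF1). The part of this in the values of the genes was not tested. The strength of a control peak also moved with whether it was kept. Of the 54 control peaks at the 10 genes that reached the lowest −log10 p among SNDX-50469 peaks, 17 were kept (31.5%), and of the 257 weaker ones 11 were (4.28%). Over the whole control list the corresponding percentages were 28.4% and 3.66%.

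A further list held 33 genes, of which 5 are other fusion partners of KMT2A and the rest belong to or bind the same machinery. Of the 33, 30 had a control peak within 5 kb of the 5′ end. Of these, 20 kept some of it, against 50.8% of all genes. Their median kept share near the 5′ end was 13.9%, against 1.83% over all genes. Neither comparison was matched for control coverage, and 29 of the 30 had at least 1 kb covered there. The median over all genes was 9.28% from 2.5 to 5 kb of control coverage and 14.8% from 5 to 7.5 kb. The covered length fell at least 2-fold at 30 of 33, close to the background given above, and was higher following treatment at 1, the fusion partner AFDN, with 218 bp in control and 564 bp in SNDX-50469, named here after its values were seen. Among subunits and binding partners of the KMT2 complexes, 7 of 10 kept some control length near the 5′ end, from 0% at DPY30 to 68.6% at JUND, a transcription factor that Menin binds. Over the rest of gene and flanks, DPY30 kept 58.2% of 5741 bp. In the super elongation complex and P-TEFb, the kinase that releases paused polymerase, 9 of 10 did so. The highest was 86.0% at MEPCE, which caps the RNA that holds P-TEFb inactive, and CDK9, the kinase itself, kept none of 8594 bp. Of the DOT1L and PAF1 complex genes 3 of 6 kept some, with 61.5% at MLLT6 (AF17) and 0% at CDC73. Of the other fusion partners 1 of 4 did, MLLT11, with 4.11%, and CBL, a ubiquitin ligase, had 28951 bp in control over gene and flanks and none in SNDX-50469. Thus the loss of all listed H3K27Ac at MEN1, MLLT3 and AFF4 also occurred at genes with far longer control coverage.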

How the data were processed

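MOLM13 H3K27Ac ChIPmentation libraries of control and SNDX-50469-treated cells were compared, 1 each; the 2 input samples were not analysed here. The submitters' processing notes name Trim Galore 0.6.5, Bowtie2 2.3.4.2, Picard 2.9.0, MACS2 2.1.2 and GRCh38, whereas the supplementary methods name TopHat2 and hg38. Calling options and use of input are not given in the sources used here. In the broad peak list deposited by the authors for each library, a peak has a ratio (fold over that library's background), a −log10 p, a −log10 q and a score, which was not used. These values are not scaled between libraries, so positions were compared, and wider or deeper calling in 1 library would change every kept share. Read depth is unknown. The value of 1 marker gene is not reported here.

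Gene positions came from RefSeq GRCh38.p14, with strand from its promoter table (15842 genes) or, by symbol, from an older GENCODE annotation (3829 genes). Genes without a strand had values over gene and flanks only. The 5′ end was the outermost annotated end. An overlap of 1 bp or more with a SNDX-50469 peak counted a control peak as kept. Exons and introns were not analysed here. Peaks, strongest and widest, were named for each of the 10 genes, as were the 2 genes nearest in pattern to KMT2A and MLLT3 and the highest and lowest of each pathway group. Genes and lists were chosen with earlier results of these data known. Python 3.11.15 with numpy 2.4.6, pandas 2.3.3, scipy 1.17.1 and matplotlib 3.10.9 was used. Interval steps were tested on simulated data. Alternatives changed window, flank, threshold, overlap and start sites.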

Additional observations from a re-analysis of the deposited data

How the results depend on the processing

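No paired analysis was possible because there was a single library per condition. Over all 10 genes, 24 of 38 alternative values stayed near those reported and 14 moved. Of the values of single genes, 13 of 52 over gene and flanks and 4 of 40 near the 5′ end moved, among them MLLT10, with 40.3% kept with 50 kb flanks, and KMT2A, with 0% without flanks. With a −log10 q of at least 5 in both lists (12 control peaks at 7 of the genes), the kept share was 11.2% near the 5′ end and 5.07% over the rest, 0 of the 4 genes with control coverage in both parts had a higher share near the 5′ end, 6 genes were at least 2-fold lower and 25% of control peaks were kept. With control peaks limited to the lowest −log10 p among SNDX-50469 peaks, 16.4% was kept over the rest. Of the control peaks at the 10 genes 31.5% were kept, beside 28.4% over the whole control list. Of the 6 genes with coverage in both parts, 4 were higher near the 5′ end. With the control list trimmed to its strongest peaks, to the covered length of the SNDX-50469 list, 5 genes and 7 peaks were left, and 56.1% was kept near the 5′ end, 35.1% over the rest and 100% of peaks, with 2 genes at least 2-fold lower and 2 of the 2 with coverage in both parts higher near the 5′ end. With this trimmed control list, AFF1 had 10146 bp in control and 13104 bp in SNDX-50469, MLLT1 0 and 5793 bp, and PSIP1 0 and 517 bp. The covered length was thus longer following treatment at these genes. It was shorter at KMT2A, DOT1L, MLLT10 and ELL, and MLLT3, MEN1 and AFF4 had none in either list. The 3 settings leave fewer control peaks by construction. The kept share summed over the genes was higher near the 5′ ends under each, and its size changed with how far down the lists were read. At a −log10 q of at least 5 no single gene had this order. DOT1L kept 38.8% near the 5′ end and 47.4% over the rest, and MLLT1, AFF1 and ELL kept 0% in both. The sum near the 5′ ends also held 1736 bp at MLLT10, which had no control coverage over the rest. With 50 kb flanks the rest kept 14.4%. When at least 50% of a control peak had to be covered, 2.25% of peaks were kept. Windows of 2 or 10 kb and every listed start left 6, 6 and 7 genes with a higher share near the 5′ end. Leaving out positions within 5 kb of other genes' 5′ ends, an alternative chosen after seeing the data, left 6 genes and 7.83% kept over the rest. Apart from the 28.4% above, no value over all genes or peaks is given at these settings. The counts and shares therefore cannot be read as particular to the 10 genes.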
